A study of Mus musculus with 12 samples.

Results

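The response of the adrenal medulla to insulin was compared between germ-free and colonized mice as a difference of 2 insulin effects. For each gene, the mean of the germ-free saline arrays was subtracted from the mean of the germ-free insulin arrays, and the same subtraction made in colonized mice was then taken away from it. All values are on the log2 scale of the arrays. A positive difference means that insulin moved the gene further up, or less far down, in germ-free than in colonized mice, and a negative difference means the opposite. All 12 arrays of the series enter the comparison. It was fitted to the 19572 probe sets that the annotation pairs with 1 gene symbol, out of 28846 rows of the table, and is given for 19505 genes, each by its probe set with the highest mean.

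The animals were male C57Bl6 mice, and the 4 groups held 3 animals each. Animals 1 to 3 were colonized with a normal gut flora and received saline, and animals 4 to 6 were colonized and received insulin. Animals 7 to 9 were germ-free and received saline, and animals 10 to 12 were germ-free and received insulin. Insulin was the human preparation Humulin at 2 IU/kg, and the controls were given an equal volume of saline. All 12 had fasted for 3 h with free access to water, were injected into the abdominal cavity and were killed 90 min later, when the adrenal medullae were dissected and frozen. Each array carried the RNA of 1 animal. The labels give no ages, litters, cages, dissection days or array batches.

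Insulin lowers blood glucose, and the fall in glucose is sensed by the nervous system, which drives the adrenal medulla through the splanchnic nerve. The chromaffin cells of the medulla then release adrenaline, which raises glucose again. In these cells acetylcholine opens nicotinic receptors, the co-transmitter PACAP acts through its receptor and cyclic AMP, and both inputs start the transcription of immediate early genes and, later, of the genes that make and store catecholamines. Germ-free animals lack the metabolites and microbial patterns that a gut flora provides. The series asks whether the response of this axis to low glucose depends on gut colonization, and the difference of the insulin effects is the comparison that addresses it in RNA.

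The difference was called for 7 of 19505 genes (0.0359%) at an adjusted p under 0.05, by limma with Benjamini-Hochberg adjustment. The insulin effect was more negative in germ-free mice for Reg1, Guca2b, Muc13, Slc5a1 and Adarb1 and more positive for Slc25a20 and Gh. At an adjusted p under 0.10 there were 49 genes (0.251%), 19 of them higher and 30 lower. Germ-free saline was the group with the highest mean for 23 of these 49 genes, germ-free insulin for 15, colonized insulin for 6 and colonized saline for 5. The same counts were not made over all genes, and the background was higher in germ-free arrays (given below), so these counts only describe the 49 genes. At an unadjusted p under 0.05 there were 915 genes with a higher effect in germ-free mice (4.69%) and 1026 with a lower one (5.26%). Of all 19505 genes, 49.6% had a difference above 0, which is the background of the list counts below. Leaving out single arrays gave from 1 to 83 called genes, with Reg1 called each time. Only Reg1 was left without any one of animals 4, 5, 6, 9, 11 or 12, and 83 genes were called without animal 1 and 43 without animal 8.

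Most genes with a large difference had insulin effects of opposite sign in the 2 colonization states. Of the 1941 genes at an unadjusted p under 0.05, 1732 (89.2%) had opposite signs, against 50.3% of all genes. Selecting on the difference favours opposite signs, so this share describes the genes and tests nothing. Among the 1941 genes, 886 had a positive effect in colonized and a negative effect in germ-free mice, and 846 the reverse. The plot of the 2 insulin effects shows that the called intestinal genes and Gh owe their distance from the line of equal effects to germ-free mice, while Slc25a20 and Adarb1 had effects of opposite sign.

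**Figure D1:**
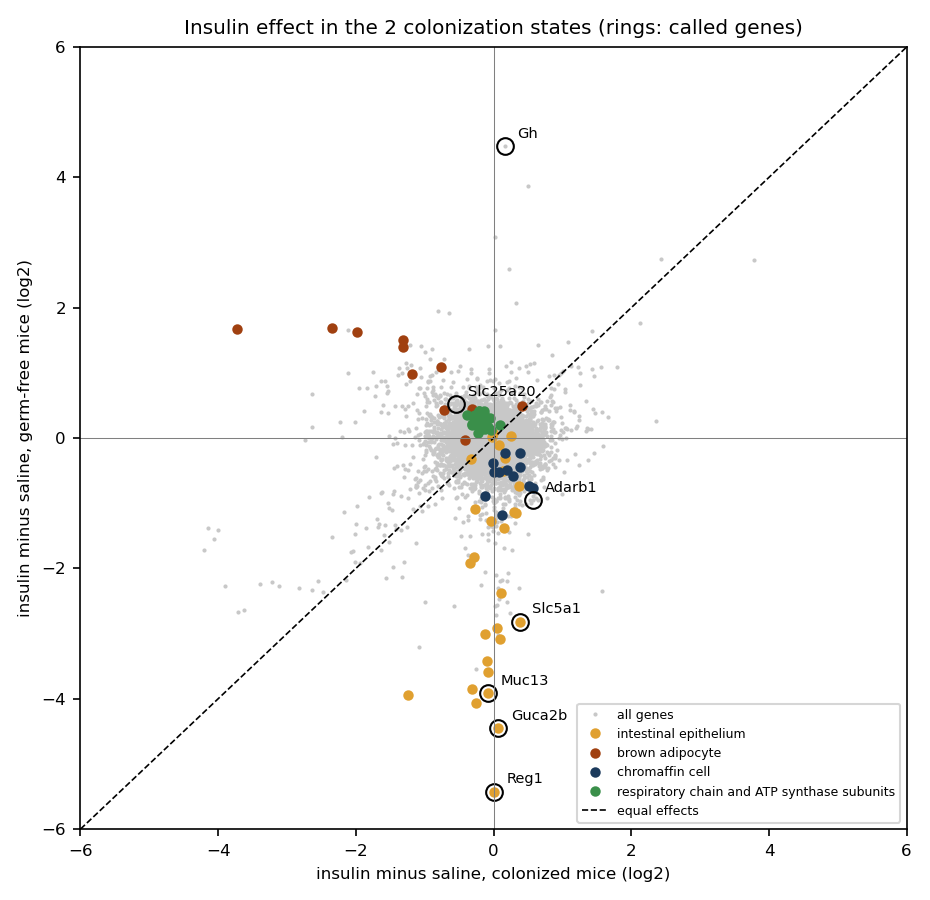
Insulin effect (insulin minus saline, log2) in germ-free mice on the vertical axis against the insulin effect in colonized mice on the horizontal axis, 1 point per gene for 19505 genes, with members of 4 lists in colour, the line of equal effects dashed and the 7 called genes ringed and named. Reg1, Guca2b, Muc13, Slc5a1 and Gh lie near 0 on the horizontal axis, and brown adipocyte markers lie to the upper left.

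The tissue on the arrays held chromaffin cells and adrenal cortex. The mean of 12 chromaffin markers was between 10.08 and 11.58 on every array and that of 12 cortex markers between 11.60 and 12.11, against a mean of 4.96 to 5.57 over 5222 negative control rows by group. The negative controls lay at 4.96 and 4.97 in the colonized groups and at 5.56 and 5.57 in the germ-free groups. In the negative controls themselves this offset subtracts out of the difference, which was -0.0052 for their means. Whether it also does so for dim genes that rise above background in some groups was not tested. Arrays of 1 group correlated at 0.954 to 0.993 across probe sets. Precision is limited by having 3 arrays per group.

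Markers of other tissues varied between arrays in ways that moved with the groups. The mean of 15 adipocyte markers was 7.56, 10.66 and 9.56 in colonized saline animals, 7.20, 7.67 and 9.35 in colonized insulin animals, 9.98, 9.74 and 9.26 in germ-free saline animals and 10.30, 10.46 and 10.77 in germ-free insulin animals. The adipokine gene Adipoq spanned 4.03 to 11.80 over the 12 arrays and Ucp1, the uncoupling protein of brown fat, spanned 4.02 to 11.59 (both named after their values were seen). The 28 intestinal epithelium markers averaged 8.00, 6.53 and 7.12 in germ-free saline animals and between 5.00 and 5.22 on every other array. The 11 pituitary markers averaged 6.37, 6.69 and 6.99 in germ-free insulin animals and between 5.22 and 5.64 elsewhere. The 15 liver markers ran from 5.68 to 10.58 within the colonized saline group alone. Animal 2, of the colonized saline group, stood highest of the 12 in liver markers and second highest in adipocyte markers, and it had the highest mean of the 10 sympathetic neuron markers (8.58, against 6.35 to 7.13 on the other arrays). In such bulk tissue, fewer cells of a type and less RNA per cell cannot be told apart.

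**Figure D2:**
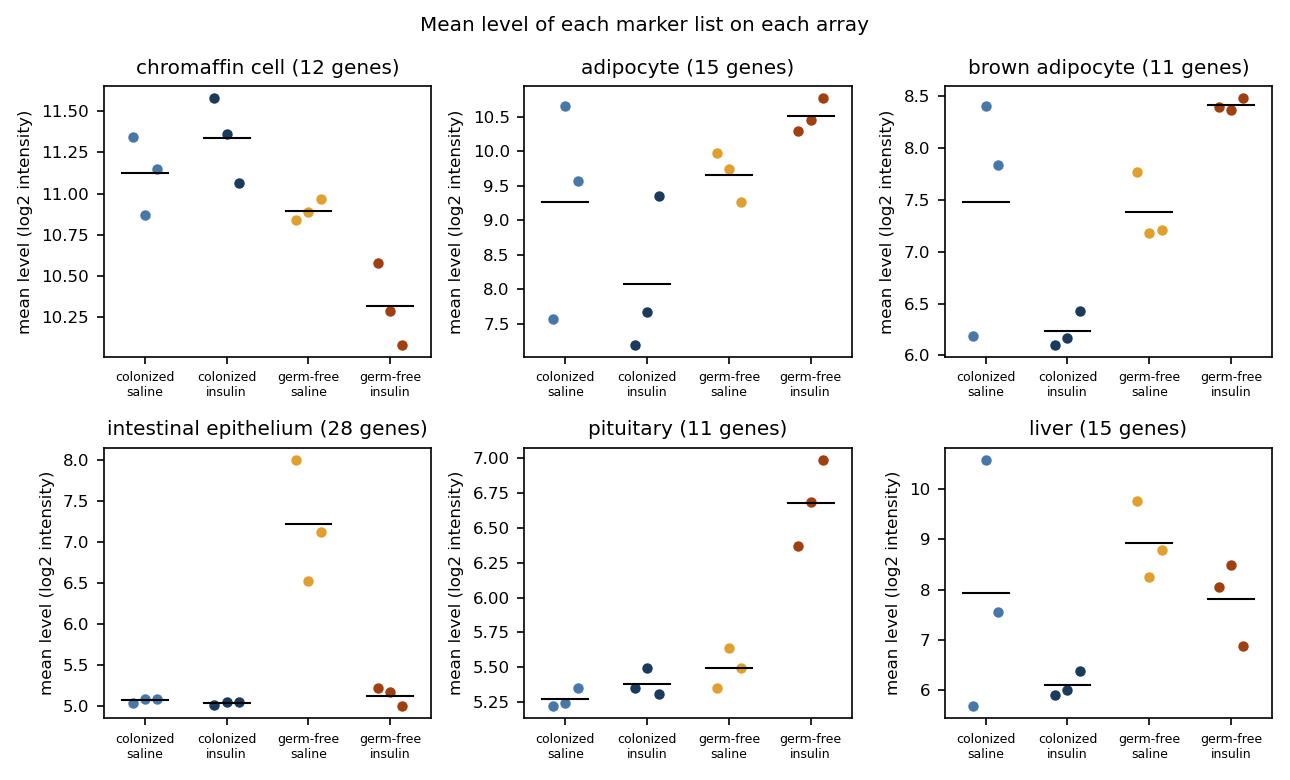
Mean log2 level of 6 marker lists on each array (vertical axes, points) for the 4 groups of 3 arrays (horizontal axes), with the group mean as a bar. Intestinal markers are high in germ-free saline arrays, pituitary markers in germ-free insulin arrays, and adipocyte and liver markers spread most in colonized saline arrays.

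The 4 called intestinal genes were high in the germ-free saline arrays and low elsewhere. Reg1, a secreted lectin of regenerating gut and pancreas, was measured at 3.86, 3.55 and 3.65 in colonized saline animals, 3.54, 3.93 and 3.60 in colonized insulin animals, 10.37, 8.33 and 8.83 in germ-free saline animals and 3.62, 3.83 and 3.79 in germ-free insulin animals. The germ-free saline arrays lay above all 9 others with no overlap. The difference was -5.43 ± 0.53 (SE, n = 3 arrays in each of 4 groups, limma adjusted p = 0.00496), with an insulin effect of 0.0046 in colonized and -5.43 in germ-free mice. Guca2b, which encodes the gut peptide uroguanylin, was at 11.23, 9.18 and 9.84 in germ-free saline animals and between 5.18 and 6.07 on the other arrays, a difference of -4.52 ± 0.57 (adjusted p = 0.0363). Muc13, a membrane mucin of gut epithelium, was at 9.39, 7.29 and 8.41 against 4.05 to 4.59, a difference of -3.83 ± 0.53 (adjusted p = 0.0462). Slc5a1, the sodium-coupled glucose transporter of the gut brush border, was at 8.26, 6.66 and 7.08 against 3.66 to 4.69, a difference of -3.20 ± 0.46 (adjusted p = 0.0462). The errors of these 4 genes use a spread pooled over the 4 groups, and their values spread most in germ-free saline animals. The errors and limma p values may thus understate the uncertainty of that group. Outside the germ-free saline group the means of Reg1, Muc13 and Slc5a1 lay below those of the negative controls, so their levels there have only an upper bound and the differences are those of the measured values. The same holds for Akp3 and Sis below, and in the germ-free insulin group for Fabp2 and Zg16.

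Other genes of the intestinal list had the same profile without passing the test. Of 28 measured members, 25 had a difference below 0 and 23 of these had an unadjusted p under 0.05, with 4 called and a median of -1.56, against a median of -0.0034 over all genes. Alpi and Akp3, which encode intestinal alkaline phosphatases, had differences of -3.52 and -3.81. Apoa4 (-3.32) and Fabp2 (-3.54) act in fat absorption. Rbp2 (-2.91), which is not on the list, binds retinol in enterocytes, Sis (-2.97) digests disaccharides and Zg16 (-2.48) is a lectin of goblet cell mucus. Their adjusted p values lay between 0.0641 and 0.0838. Animal 7 had the highest and animal 8 the lowest value of the germ-free saline group for all 11 intestinal genes named here. The median of the list was -1.12 without animal 7 and -2.06 without animal 8. Guca2b, Muc13 and Slc5a1 lost their calls in 7, 8 and 7 of the 12 fits with 1 array left out, among them those without animals 4, 5, 6 and 9. With the mean of the intestinal markers as a covariate, chosen after the data were seen, the difference was -2.65 for Reg1 and -1.67 for Guca2b. Both genes are themselves part of that mean, so these values are in part set by the covariate itself. The difference of Rbp2, which is not part of the mean, was -0.11 with the same covariate. That mean was high in the germ-free saline group alone, at 7.22 against 5.07, 5.04 and 5.13 in the other groups. The covariate thus overlaps the difference itself, for Rbp2 and for every gene or list given with it below. No conclusion is drawn from these values. Whether gut tissue or RNA reached the germ-free saline samples was not tested.

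**Figure D3:**
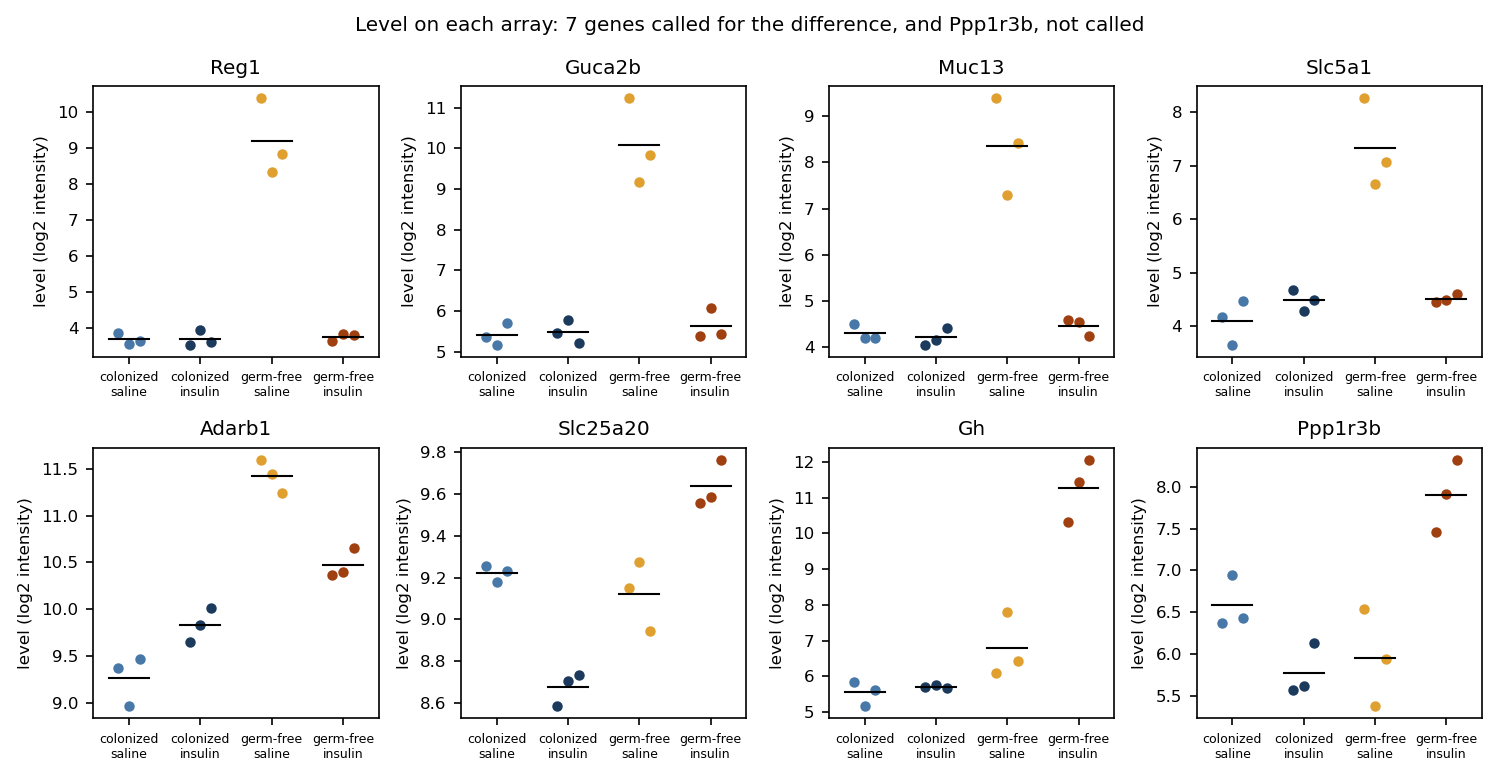
Log2 level on each array (vertical axes, points, with the group mean as a bar) of the 7 called genes and of Ppp1r3b, the next gene past the threshold, in the 4 groups of 3 arrays (horizontal axes). Reg1, Guca2b, Muc13 and Slc5a1 are high in germ-free saline arrays alone, Gh in germ-free insulin arrays, and Slc25a20 lies lowest in colonized insulin and highest in germ-free insulin arrays.

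Gh, growth hormone, was the called gene with the most positive difference. It was measured at 5.86, 5.17 and 5.63 in colonized saline animals, 5.70, 5.76 and 5.69 in colonized insulin animals, 6.11, 7.81 and 6.43 in germ-free saline animals and 10.31, 11.43 and 12.06 in germ-free insulin animals. The germ-free insulin arrays lay above all others, and the germ-free saline arrays lay above both colonized groups. The negative controls were also higher in the germ-free groups, at 5.56 and 5.57 against 4.96 and 4.97, so the order of the saline levels is not free of background. The difference was 4.32 ± 0.63 (limma adjusted p = 0.0462). Prolactin, Prl, was at 7.42, 8.77 and 9.38 in germ-free insulin animals and at 4.66 to 5.81 elsewhere (difference 3.06 ± 0.57, adjusted p = 0.0838, not called). Pomc, the precursor of ACTH, had a difference of 1.63 and Cga, the common subunit of the glycoprotein hormones, one of 1.75, and neither was called. Cga averaged below the negative controls in all groups but germ-free insulin, and Prl and Pomc did so in germ-free saline. Their differences are thus those of the measured values, set in part against background.

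Of 11 measured pituitary genes, 9 had a difference above 0, 5 of them at an unadjusted p under 0.05, with Gh the only member called and a median of 0.24. Ptgds, prostaglandin D synthase, followed Gh across the arrays at 9.22, 10.48 and 11.16 in germ-free insulin animals against 5.64 to 7.38 elsewhere (difference 3.35 ± 0.67, adjusted p = 0.111, not called). The genes most like Gh over the 12 arrays were Prl (Pearson r = 0.970), Cabyr (0.961) and Ptgds (0.955). The difference of Gh ranged from 3.92 to 4.83 over the 12 fits that left out 1 array, and it was 1.79 with the intestinal marker covariate. It kept its call without animal 1, 2, 8 or 10 and lost it without any of the other 8 (limma adjusted p from 0.00264 to 0.225 over the 12 fits). Whether pituitary tissue or RNA reached the germ-free insulin samples was not tested.

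Slc25a20 is the carnitine-acylcarnitine carrier, which brings fatty acids into the mitochondrial matrix for oxidation, and it was the called gene with opposite effects of comparable size. It was measured at 9.25, 9.18 and 9.23 in colonized saline animals and 8.58, 8.71 and 8.73 in colonized insulin animals, and at 9.15, 9.27 and 8.94 in germ-free saline animals and 9.56, 9.59 and 9.76 in germ-free insulin animals. In both states the insulin arrays lay apart from the saline arrays, below them in colonized mice and above them in germ-free mice. The effects were -0.55 in colonized and 0.51 in germ-free mice, and their difference was 1.06 ± 0.15 (limma adjusted p = 0.0462). After saline the 2 states differed by -0.10, and after insulin by 0.96. The difference ranged from 0.97 to 1.14 over the 12 fits with 1 array left out. It was called without animal 1, 2 or 8 and not called without any of the other 9 (limma adjusted p from 0.0124 to 0.182 over the 12 fits). It was 1.02 with the adipocyte marker covariate, 1.12 with the cortex covariate, 0.89 with the chromaffin covariate and 0.90 with the intestinal covariate, and not called with any of them.

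Genes that work beside Slc25a20 in oxidation had differences in the same direction. Among 31 genes of fatty acid oxidation and PPAR targets, 27 had a difference above 0, with 18 higher and 1 lower at an unadjusted p under 0.05 and a median of 0.65. Slc25a20 is the member called. Acadl, which starts the oxidation of long-chain acyl-CoA, was at 10.58, 10.98 and 10.65 in colonized saline, 10.01, 10.15 and 10.21 in colonized insulin, 10.55, 10.44 and 10.27 in germ-free saline and 10.71, 10.79 and 11.05 in germ-free insulin animals (difference 1.04 ± 0.19, adjusted p = 0.0838). Insulin arrays of Acadl lay below saline arrays in colonized mice and above them in germ-free mice. Hadhb (0.72), a subunit of the trifunctional protein, and Cpt2 (0.80), the inner carnitine palmitoyltransferase, were not called. The 28 respiratory chain and ATP synthase subunits were all above 0, 18 of them at an unadjusted p under 0.05 and none called, with a median of 0.47. Their members with the smallest p included Sdhd of complex II (0.64), Uqcrfs1 of complex III (0.62) and Ndufv1 of complex I (0.62).

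Idh3a of the citric acid cycle, Pdhb of the step that feeds it, Pank1 and Gpd1 were among the 15 genes with the highest moderated t values. Idh3a, a subunit of NAD-dependent isocitrate dehydrogenase, was at 9.94, 10.36 and 10.15 in colonized saline, 9.68, 9.66 and 9.76 in colonized insulin, 10.14, 10.00 and 9.93 in germ-free saline and 10.54, 10.59 and 10.66 in germ-free insulin animals. Its groups were separated by insulin in both states, in opposite directions, with a difference of 1.02 ± 0.16 (limma adjusted p = 0.0666, not called). Pdhb, of pyruvate dehydrogenase, had a difference of 0.88 ± 0.15 and Pank1, which starts coenzyme A synthesis, one of 1.16 ± 0.20 (both adjusted p = 0.0737). Gpd1, glycerol-3-phosphate dehydrogenase, had a difference of 1.59 (adjusted p = 0.0916). The others of the 15 were Ppp1r3b and Gbe1, described below, Palmd (1.15), Letmd1 (0.77), Fam214a (1.21), Cox7a1 (2.17) and Parp16 (1.13), besides the hormone genes Gh and Prl. Parp16, an ADP-ribosyltransferase of the endoplasmic reticulum, had an insulin effect of -1.07 in colonized and 0.06 in germ-free mice.

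The genes most like Slc25a20 over the 12 arrays were Gnpat (r = 0.960), which makes ether lipids in peroxisomes, Pdhb (0.956) and Sdhd (0.952). Of 36 carriers of the SLC25 family, 22 were above 0 with a median of 0.11, 6 were higher and 1 lower at an unadjusted p under 0.05, and only Slc25a20 was called. The citrate carrier Slc25a1 had a difference of 0.79 and the aspartate-glutamate carrier Slc25a12 one of -0.83.

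Fat markers had larger differences than these oxidative genes. The 11 brown adipocyte markers had a median difference of 2.17, with 11 above 0, 9 at an unadjusted p under 0.05 and none called, and the 15 adipocyte markers had a median of 2.14, with 15 above 0, 10 at an unadjusted p under 0.05 and none called. Cox7a1 and Cox8b, muscle and brown fat forms of cytochrome oxidase subunits, had differences of 2.17 and 1.86, and Otop1 one of 2.83. The lipases Lipe (1.08) and Pnpla2 (0.94) had smaller differences. With the adipocyte marker mean as a covariate the median was 0.47 for fatty acid oxidation, with 15 of 31 higher and 1 lower at an unadjusted p under 0.05, and 0.29 for the respiratory chain, with 28 of 28 above 0 and 8 higher. With the chromaffin marker mean as a covariate the medians were 0.39, with 7 of 31 higher, and 0.19, with 24 of 28 above 0 and 0 of the 28 at an unadjusted p under 0.05. Without animal 2 the medians were 0.58 and 0.34, with 21 and 15 members higher at an unadjusted p under 0.05. With the adipocyte covariate the brown adipocyte markers kept a median of 1.31. Of these, 11 of 11 were above 0 and 7 were higher at an unadjusted p under 0.05. The adipocyte markers, which make up that covariate, had a median of 0.30. No brown adipocyte covariate was fitted, and the part of brown fat in the oxidative medians was not tested.

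Glycogen genes also had differences above 0. Ppp1r3b, which targets protein phosphatase 1 to glycogen, was at 6.38, 6.95 and 6.43 in colonized saline, 5.57, 5.62 and 6.13 in colonized insulin, 6.54, 5.38 and 5.94 in germ-free saline and 7.46, 7.91 and 8.32 in germ-free insulin animals. The germ-free insulin arrays lay above all others, and the colonized insulin arrays below the colonized saline arrays. The difference was 2.75 ± 0.41, just outside the threshold (limma adjusted p = 0.0552). Gbe1, the branching enzyme, had a difference of 0.89, Pygl, liver glycogen phosphorylase, one of 2.43 (1.18 with the adipocyte covariate), and Gys1, muscle glycogen synthase, one of 0.60. Of 11 members 9 were above 0, 6 of them at an unadjusted p under 0.05 and none called, with a median of 0.60, which was 0.40 without animal 2 and 0.32 with the adipocyte covariate.

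In glycolysis and glucose transport, 14 of 20 genes were above 0, with 6 higher and 2 lower at an unadjusted p under 0.05, none called and a median of 0.26. Slc2a1, the glucose transporter GLUT1, was among the 15 genes with the lowest t values. It was at 9.90, 9.81 and 10.10 in colonized saline, 10.55, 10.76 and 10.53 in colonized insulin, 10.50, 10.32 and 10.69 in germ-free saline and 10.32, 10.11 and 10.13 in germ-free insulin animals, a difference of -0.99 ± 0.18 (limma adjusted p = 0.0838). Insulin arrays of Slc2a1 lay above saline arrays in colonized mice, while in germ-free mice the 3 insulin values included one equal to the lowest saline value at 2 decimals. Pfkfb3, which makes the activator of phosphofructokinase, had a difference of 2.32, which was 0.73 with the adipocyte covariate and 0.028 with the chromaffin covariate.

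Adarb1 encodes ADAR2, an enzyme that converts adenosine to inosine in double-stranded RNA, and it was the called gene outside gut with a negative difference. It was at 9.37, 8.97 and 9.46 in colonized saline, 9.65, 9.83 and 10.02 in colonized insulin, 11.59, 11.45 and 11.24 in germ-free saline and 10.37, 10.39 and 10.65 in germ-free insulin animals. Its 4 groups did not overlap, in the order colonized saline, colonized insulin, germ-free insulin and germ-free saline. The insulin effect was 0.57 in colonized and -0.96 in germ-free mice, and the difference was -1.52 ± 0.22 (limma adjusted p = 0.0462). It ranged from -1.62 to -1.37 with 1 array left out, being called without animal 1, 2, 3 or 8 and not called without any of the other 8 (limma adjusted p from 0.0193 to 0.175 over the 12 fits). It was -1.27 with the cortex covariate, -1.54 with the adipocyte covariate, -1.69 with the chromaffin covariate and -1.33 with the intestinal covariate, with no call.

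Of 10 measured deaminases of RNA and DNA, 9 were below 0, with 3 lower, Adarb1 among them, and 1 higher at an unadjusted p under 0.05 and a median of -0.26. Apobec1, the cytidine deaminase that edits apolipoprotein B RNA, had a difference of -0.64 and Apobec3, an antiviral cytidine deaminase, one of -0.41. Adat2, a transfer RNA deaminase, had one of 0.71. Among 15 genes whose RNA ADAR2 is known to edit, 10 were below 0, with 2 lower and 1 higher at an unadjusted p under 0.05, none called and a median of -0.19. The glutamate receptor gene Gria2 (-1.62) and the channel component Unc80 (-1.18) were at the lower end, and the median was -0.05 without animal 2. These are levels of the RNA, and editing itself is not measured by the arrays. The genes most like Adarb1 over the arrays were Flcn (r = 0.957), Pcna (0.955) and the vitamin C transporter Slc23a2 (0.954), with differences of -0.46, -0.36 and -1.15.

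Chromaffin genes had differences below 0 that did not pass the test. All 12 measured chromaffin markers were below 0, 8 of them at an unadjusted p under 0.05 and none called, with a median of -0.73. Th, the rate-limiting enzyme of catecholamine synthesis, was at 13.59, 13.04 and 13.57 in colonized saline, 13.91, 13.87 and 13.56 in colonized insulin, 13.41, 13.46 and 13.54 in germ-free saline and 13.47, 13.18 and 13.07 in germ-free insulin animals, with overlap between saline and insulin in both states. The top value of the table is 13.91, so Th is near the upper end of the scale. Pnmt, which turns noradrenaline into adrenaline, was at 11.97, 10.92 and 11.75 in colonized saline, 12.40, 12.00 and 11.80 in colonized insulin, 11.48, 11.50 and 11.77 in germ-free saline and 11.34, 10.71 and 10.48 in germ-free insulin animals. Its insulin values lay below its saline values in germ-free mice and overlapped them in colonized mice.

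The 13 genes of catecholamine synthesis and storage had a median of -0.56, with 12 below 0 and 4 lower and 1 higher at an unadjusted p under 0.05. The differences were -0.61 ± 0.23 for Th, -0.86 ± 0.27 for Dbh, which makes noradrenaline, -1.25 ± 0.39 for Pnmt and -0.54 ± 0.26 for Ddc, which makes dopamine (limma adjusted p from 0.330 to 0.522). Of 9 granins and prohormone processing genes, 8 were below 0 and 4 of these had an unadjusted p under 0.05, with a median of -0.67. The vesicle proteins Chga (-0.82), Chgb (-0.70) and Scg3 (-1.06) are examples. The transcription factors of the chromaffin lineage had a median of -0.71 over 9 genes, with 7 below 0 and 4 lower at an unadjusted p under 0.05. These lists share members with the chromaffin markers, such as Th, Chga and Phox2a, so their medians are no separate support.

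Tfap2b was at 9.09, 8.49 and 8.53 in colonized saline, 9.00, 8.61 and 8.38 in colonized insulin, 8.23, 8.34 and 8.39 in germ-free saline and 7.13, 6.94 and 6.84 in germ-free insulin animals, with the last group below all others (difference -1.31 ± 0.26, limma adjusted p = 0.10). Phox2a (-1.31), Gata2 (-0.88) and Hand2 (-0.76), which specify noradrenergic cells, were not called.

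With the adipocyte covariate the median of the chromaffin markers was -0.40, with 12 of 12 below 0 and 1 at an unadjusted p under 0.05. That of the granins was -0.17 and that of the lineage factors -0.33. With the chromaffin covariate the median was -0.01 for the granins and -0.008 for the lineage factors. Members shared with that covariate set these values in part. Without animal 2 the medians were -0.60 for the chromaffin markers, -0.43 for the granins and -0.78 for the lineage factors. The chromaffin marker mean itself was 11.34, 10.87 and 11.15 in colonized saline, 11.58, 11.36 and 11.07 in colonized insulin, 10.84, 10.89 and 10.96 in germ-free saline and 10.58, 10.29 and 10.08 in germ-free insulin animals. The germ-free insulin arrays thus had the lowest chromaffin and the highest brown fat values on average, and the part of tissue composition in the difference was not tested.

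**Figure D4:**
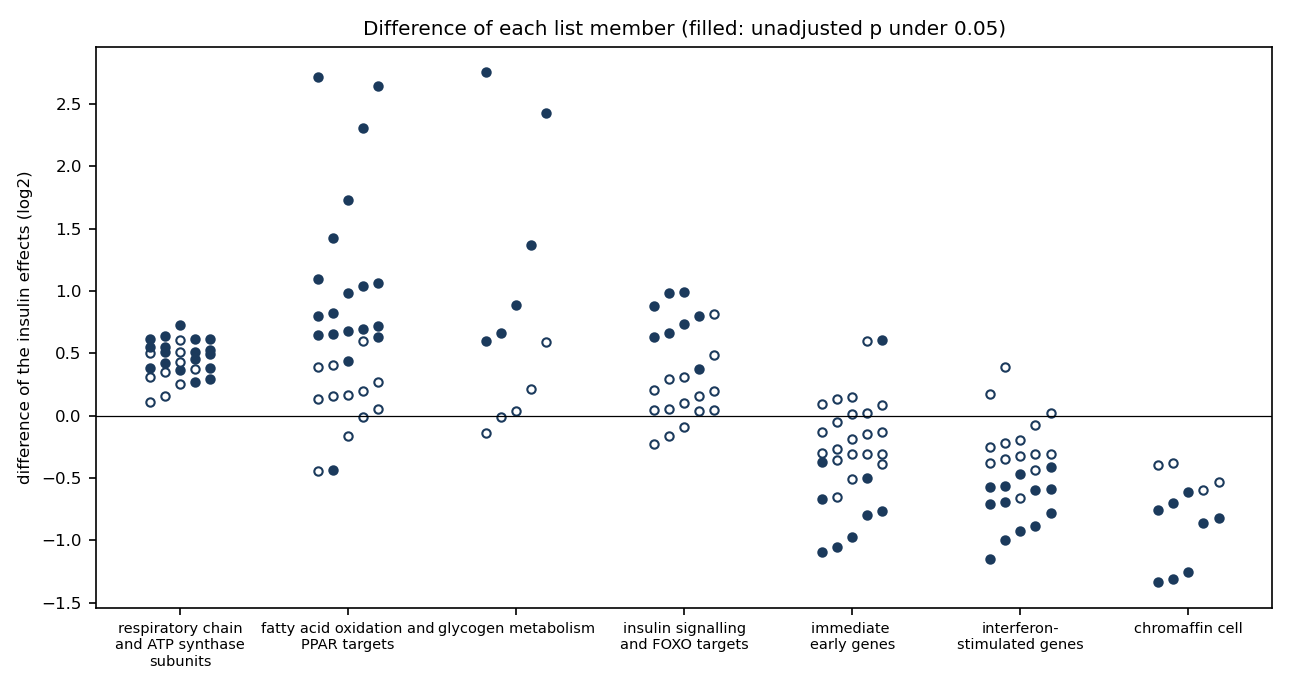
Difference of the insulin effects (log2, vertical axis) of each measured member of 7 gene lists (horizontal axis), 1 point per gene, filled where the unadjusted p is under 0.05. All respiratory chain members are above 0 and all 12 chromaffin members below it.

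Promoters of some chromaffin genes carry a known cyclic AMP element, shown here because PACAP and nicotinic input can act on chromaffin genes through cyclic AMP and calcium. That input was not measured here. The RefSeq promoter table (GRCm38.p6, 250 bases before to 50 after each start) matched 15691 of the genes by symbol. The palindromic motif TGACGTCA, on either strand, was found in 412 of them (2.63%) and in 4 of the 9 chromaffin markers with an entry (44.4%). Among the 41 genes with an entry and an adjusted p under 0.10 for the difference (limma), 0 had the motif. The motif was 1 of 9 searched and was chosen for display after the matches were seen. The windows give 30 bases on each side in lower case, 5′ to 3′ on the strand of the gene, with the motif in capitals. They are chr7:142900003-142900070 (minus strand) for Th, chr2:132781540-132781607 (plus strand) for Chgb, chr19:59260844-59260911 (plus strand) for Slc18a2, which loads catecholamines into vesicles, and chr1:79440057-79440124 (minus strand) for Scg2, another granin.
Th: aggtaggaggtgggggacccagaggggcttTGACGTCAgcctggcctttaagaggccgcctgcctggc
Chgb: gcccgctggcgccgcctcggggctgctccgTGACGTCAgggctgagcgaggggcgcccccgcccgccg
Slc18a2: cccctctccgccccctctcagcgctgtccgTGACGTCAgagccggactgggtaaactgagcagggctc
Scg2: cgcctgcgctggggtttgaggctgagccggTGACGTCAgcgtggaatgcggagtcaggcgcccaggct
The differences of these 4 genes were -0.61, -0.70, -0.38 and -0.39, with unadjusted p values of 0.0211, 0.00503, 0.277 and 0.0566. A match describes the letters of the window and is no measured site.

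Receptors that carry the splanchnic signal had a median of -0.35 over 12 genes, with 9 below 0 and 3 lower and 1 higher at an unadjusted p under 0.05. Adcyap1r1, the PACAP receptor, was at 10.82, 9.82 and 10.63 in colonized saline, 11.36, 10.97 and 10.73 in colonized insulin, 10.27, 10.19 and 10.37 in germ-free saline and 9.86, 9.39 and 9.06 in germ-free insulin animals. The colonized insulin values lay above the germ-free ones, and in germ-free mice insulin values lay below saline values (difference -1.44 ± 0.37, limma adjusted p = 0.223). The nicotinic subunits Chrnb2 (-0.76) and Chrna7 (-1.09) were not called. With the chromaffin covariate the median of the list was -0.05, with 7 of 12 below 0 and 0 at an unadjusted p under 0.05.

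Ion channel genes had a median of -0.19 over 18 members, with 11 below 0 and 4 at an unadjusted p under 0.05. Scn3a, a sodium channel, had a difference of -1.06 and the potassium channel gene Kcnk9 one of -0.49. The exocytosis machinery had a median of -0.13 over 25 genes, with 4 lower and 1 higher at an unadjusted p under 0.05. The calcium sensor Syt7 (-0.65), Rab27a (-1.0) and the SNARE gene Snap25 (-0.98) are its members with the smallest p. None of these genes was called. Without animal 3 the exocytosis median turned to 0.10 and the channel median was -0.07. With the chromaffin covariate the exocytosis median was -0.02 and the channel median 0.03.

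Neuropeptide precursors had a median of -0.18 over 16 genes, with 11 below 0, 2 at an unadjusted p under 0.05 and none called. Their median was 0.05 with the chromaffin covariate. Nppb, the natriuretic peptide precursor, was at 4.68, 4.37 and 4.37 in colonized saline and 5.19, 5.66 and 5.51 in colonized insulin animals, and at 4.46, 4.36 and 4.55 in germ-free saline and 4.61, 4.59 and 4.54 in germ-free insulin animals. Its colonized insulin arrays lay above all others (difference -0.86 ± 0.19, limma adjusted p = 0.139), though 3 of the 4 groups averaged below the negative controls. Npy, which chromaffin cells release with catecholamines, had a difference of -0.68 and Cartpt one of -0.67. Adm, adrenomedullin, had negative insulin effects in both states, -1.31 in colonized and -1.90 in germ-free mice, and a difference of -0.60 ± 0.30.

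Immediate early genes are the first to be transcribed after stimulation. Their median effect of insulin was 0.65 in colonized and 0.34 in germ-free mice, and the median difference over 30 genes was -0.30, with 22 below 0, 8 lower and 1 higher at an unadjusted p under 0.05 and none called. Egr1 was at 9.80, 10.47 and 10.08 in colonized saline, 11.70, 11.22 and 11.04 in colonized insulin, 11.01, 11.19 and 10.98 in germ-free saline and 11.20, 11.08 and 11.34 in germ-free insulin animals. The colonized saline arrays lay below the other 3 groups, which overlapped. The difference was -1.06 ± 0.26 (limma adjusted p = 0.212). The median of the list was -0.18 without animal 2 and -0.13 with the adipocyte covariate.

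Fosl1 (-0.97), Ier3 (-1.09) and Nr4a1 (-0.76) had their lowest mean in colonized saline arrays, and germ-free minus colonized saline was 0.81, 1.95 and 1.19 for these 3. Fos had a difference of -0.65 ± 0.36 and Klf10 one of 0.61. Ptgs2, the inducible cyclooxygenase, was at 4.61, 5.87 and 5.00 in colonized saline, 10.06, 8.93 and 7.84 in colonized insulin, 6.92, 7.59 and 6.90 in germ-free saline and 10.02, 9.54 and 10.02 in germ-free insulin animals. Insulin arrays of Ptgs2 lay above saline arrays in both states, and the difference was -1.05 ± 0.65 (limma unadjusted p = 0.134).

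The MAP kinase phosphatases end signalling by ERK, JNK and p38. Dusp10 was at 8.95, 8.40 and 8.84 in colonized saline, 10.00, 10.39 and 9.83 in colonized insulin, 9.33, 9.47 and 9.56 in germ-free saline and 9.57, 9.57 and 9.54 in germ-free insulin animals (difference -1.23 ± 0.23, limma adjusted p = 0.0838). Its colonized insulin arrays lay above all others. Dusp8 (-1.28) and Dusp5 (-0.97) were not called. Over the 15 genes of this list the median was -0.24, with 3 lower and 2 higher at an unadjusted p under 0.05. It was 0.02 with the chromaffin covariate. Map2k4, the kinase above JNK, was among the 15 lowest t values (-0.96, adjusted p = 0.0838), as was the cochaperone gene Sgtb (-1.16, adjusted p = 0.0602).

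Among 15 targets of CREB and cyclic AMP the median was 0.0031, with 2 higher and 1 lower at an unadjusted p under 0.05 and none called. The higher members were Dio2 (2.56), which activates thyroid hormone, and Ppargc1a (2.34), the coactivator of mitochondrial biogenesis, both of which brown fat also expresses. The lower one was the phosphodiesterase gene Pde10a (-0.63). With the adipocyte covariate the differences of Dio2 and Ppargc1a were 1.64 and 0.78. Prostaglandin genes had a median of 0.26 over 16 genes, with 4 higher and 1 lower at an unadjusted p under 0.05. The direction of this median turned with the covariates, to -0.06 with the adipocyte and -0.20 with the chromaffin markers, and it was 0.08 without animal 2. Besides Ptgds these include the receptor gene Ptger3 (0.89), prostaglandin E synthase Ptges (0.53) and thromboxane synthase Tbxas1 (-0.54).

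Insulin signalling and FOXO target genes, which insulin restrains through AKT, had 20 of 23 members above 0, 8 of them at an unadjusted p under 0.05 and none called, with a median of 0.29. Their median insulin effect was -0.31 in colonized and 0.05 in germ-free mice. Txnip, an inhibitor of glucose uptake that follows cellular glucose, was at 12.13, 12.40 and 12.21 in colonized saline, 10.95, 10.79 and 11.48 in colonized insulin, 11.54, 11.36 and 11.45 in germ-free saline and 11.27, 11.21 and 11.01 in germ-free insulin animals. The insulin arrays lay below the saline arrays in both states, with effects of -1.17 and -0.29, and the difference was 0.88 ± 0.23 (limma adjusted p = 0.224). Its relative Arrdc4 (0.66), the ubiquitin ligase Fbxo32 (0.80) and Foxo1 (0.63) were not called. The median of the list was 0.19 without animal 4 and 0.17 with the adipocyte covariate. With the chromaffin covariate it was 0.11, with 13 of 23 above 0 and 0 at an unadjusted p under 0.05.

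Genes of sterol metabolism had differences below 0. Of 16 genes of cholesterol synthesis and uptake, 15 were below 0, with 3 at an unadjusted p under 0.05 and none called, and the median was -0.34. Idi1 (-1.68) and Sc5d (-0.38), enzymes of sterol synthesis, were lower members. The median turned to 0.09 with the adipocyte covariate and was -0.09 without animal 2. Steroid synthesis genes and the ACTH receptor had a median of -0.18 over 12 genes, with 1 higher and 1 lower at an unadjusted p under 0.05, and the ACTH receptor gene Mc2r had a difference of -0.37. This median was -0.02 without animal 2, with 6 of 12 genes above 0, and turned to 0.02 with the adipocyte covariate.

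Interferon-stimulated genes had 24 of 27 members below 0, 13 of them at an unadjusted p under 0.05 and none called, with a median of -0.43. Irf7, the amplifying factor of the interferon response, was at 8.35, 7.90 and 8.14 in colonized saline, 8.78, 9.39 and 8.62 in colonized insulin, 7.75, 7.68 and 7.79 in germ-free saline and 7.24, 7.57 and 7.35 in germ-free insulin animals. Insulin values lay above saline values in colonized mice and below them in germ-free mice (difference -1.15 ± 0.26, limma adjusted p = 0.158). Ifit1 (-1.0), Oas1a (-0.71) and Mx2 (-0.57), antiviral effectors, were not called. The count at an unadjusted p under 0.05 was 8 without animal 2, 4 without animal 7 and 5 with the adipocyte covariate. With the intestinal covariate the median was 0.10.

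The interferon response element is shown for 4 of these genes because the list had the motif in most of its promoters. The core TTCNNTTTC was found on either strand in 1456 of the 15691 promoters (9.28%) and in 13 of the 20 listed genes with an entry (65.0%). It was likewise chosen for display after the matches were seen, and capitals mark the match, which for Oas1a and Isg15 is on the strand opposite to the gene and so reads as its reverse complement. The windows are chr5:120907507-120907575 (minus strand) for Oas1a, chr19:34640750-34640818 (plus strand) for Ifit1, chr3:142620575-142620643 (plus strand) for Gbp2, a guanylate-binding protein, and chr4:156200858-156200926 (minus strand) for Isg15, a ubiquitin-like modifier.
Oas1a: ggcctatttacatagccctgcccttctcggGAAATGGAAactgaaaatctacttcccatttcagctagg
Ifit1: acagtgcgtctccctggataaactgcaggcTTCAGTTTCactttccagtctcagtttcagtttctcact
Gbp2: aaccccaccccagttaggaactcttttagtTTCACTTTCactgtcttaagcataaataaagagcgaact
Isg15: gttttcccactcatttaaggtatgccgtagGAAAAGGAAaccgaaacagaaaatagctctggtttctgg
Gbp2 had a difference of -0.69 and Isg15 one of -0.59, beside the values of Oas1a and Ifit1 above.

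Other immune lists stayed nearer the median of all genes. The 14 antigen presentation genes were all below 0 with a median of -0.19, none at an unadjusted p under 0.05, and the median was 0.32 with the intestinal covariate. Microbial pattern sensors had a median of 0.17 over 17 genes, with 2 higher and 2 lower at an unadjusted p under 0.05, among them the flagellin receptor Tlr5 (0.68), which lay below the negative controls in every group, and Tlr9 (-0.56). Inflammatory cytokines and NF-kB feedback genes had a median of -0.10 over 17 genes with 2 lower, Socs3 (-0.73) and Nfkbiz (-0.45).

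Of the remaining lists, the 9 genes of the aryl hydrocarbon receptor pathway were all above 0 with a median of 0.44 and none at an unadjusted p under 0.05. Glucocorticoid receptor targets had a median of -0.30 over 13 genes, with 2 lower, Cdkn1a (-0.67) and Zbtb16 (-0.55), and 1 higher. Circadian clock genes (median 0.03 over 16, with Bhlhe40 lower at -0.86), heat shock genes (-0.07 over 11) and genes of the ER stress and ATF4 response (-0.03 over 18, with Atf4 at -0.42 and Sdf2l1 at -0.69) were centred near 0. Genes of catecholamine uptake and breakdown had a median of 0.41 over 6, and adrenergic receptors one of 0.17 over 3. None of their members was called. Leaving out animal 2 gave -0.0055 for the adrenergic receptors, 0.21 for heat shock genes, 0.21 for clock genes, 0.20 for catecholamine uptake and breakdown and -0.17 for glucocorticoid targets, and leaving out animal 11 gave 0.16 for the aryl hydrocarbon receptor pathway.

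**Figure D5:**
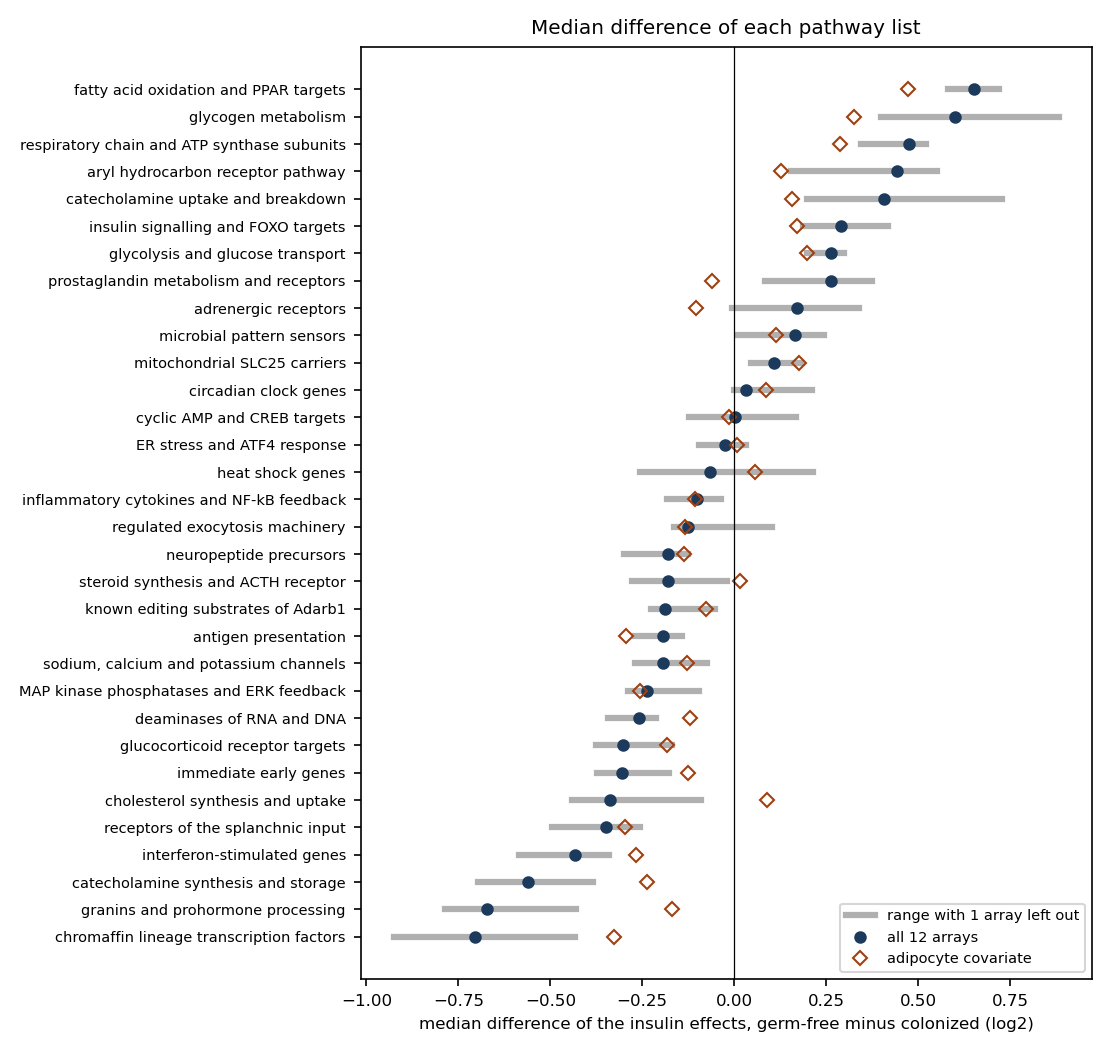
Median difference of the insulin effects (log2, horizontal axis) of 32 pathway lists (vertical axis), with all 12 arrays (filled points), over the 12 fits with 1 array left out (grey bars) and with the adipocyte marker mean as a covariate (open diamonds). Fatty acid oxidation, glycogen and respiratory chain genes have the highest medians and chromaffin lineage factors, granins and catecholamine genes the lowest.

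Markers of nerve, stroma and blood completed the account. Schwann and sustentacular cell markers had a median of 0.45 over 10 genes with 10 above 0, and the myelin gene Mbp (1.67) stood highest in animal 2 (8.90, against 6.44 to 7.65 on the other arrays). The sympathetic neuron markers had a median of 0.38 over 10 genes with 10 above 0, and Prph, an intermediate filament gene of peripheral neurons, was at 10.07 in animal 2 and at 4.93 to 6.24 elsewhere. Without animal 2 the medians were 0.32 and 0.06. Liver markers had a median of 0.31 over 15 genes, which was -0.85 without animal 2, and the carrier protein gene Ttr had a difference of 3.78. Fibroblast markers had a median of 0.82 over 11 genes, which was 0.20 without animal 2 and -0.30 with the adipocyte covariate. Adrenal cortex markers had a median of -0.22 over 12 genes, erythroid markers one of -0.35 over 2, and kidney, muscle, pancreas, endothelium, macrophage and lymphocyte markers lay between -0.15 and 0.09. None of these markers was called.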

How the data were processed

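RNA of 12 adrenal medullae was hybridized to Affymetrix arrays. The authors deposited 1 table of log2 values, and the submitters' processing notes name RMA and limma without versions. The sources used here do not say whether all arrays were normalized together. The values were not transformed further. Of 28846 rows, 9274 without a symbol were left out, among them 5222 negative controls and 2634 transcript rows. All 19572 identifiers matched the RefSeq gene table for GRCm38.p6.

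The fit used limma 3.58.1 (R 4.3.3), 1 mean for each group, and eBayes with neither trend nor robust variance, leaving 8 residual degrees of freedom beside 4.08 prior ones. Benjamini-Hochberg adjustment ran over 19572 probe sets, and adjusted p values are from this fit unless another fit is named beside them. Errors are standard errors. The pipeline was tested on simulated data of the same design.

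The 32 pathway and 17 cell type lists (699 of 778 genes measured) and the genes examined were chosen with earlier results of these data known. Lists are described by counts and medians, with no test of a list. Genes were named if called, among the 15 highest or 15 lowest moderated t values with an informative symbol and a highest group mean at or above the median, among the 4 smallest p values of a list, or in a fixed set (Egr1, Fos, Nr4a1, Ptgs2, Chga, Npy, Ddc, Th, Dbh, Pnmt). The genes most alike and those in the promoter windows were named besides. Alternatives were all rows, 1 probe set per gene, filters on dim probe sets, a second quantile normalization, median centring, trend and robust options, array weights, marker covariates, other thresholds and leaving out each array. The covariate is the mean of a marker list on each array. The intestinal mean was high in germ-free saline arrays alone, so a fit with it cannot separate the covariate from the difference.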

Additional observations from a re-analysis of the deposited data

Results flagged for a closer look

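The insulin effect differed between the 2 colonization states for 7 genes by the test of the difference itself (limma, adjusted p under 0.05). The differences, germ-free minus colonized, were -5.43 for Reg1, -4.52 for Guca2b, -3.83 for Muc13, -3.20 for Slc5a1, -1.52 for Adarb1, 1.06 for Slc25a20 and 4.32 for Gh. Reg1, Muc13 and Slc5a1 averaged below the negative controls in all groups but germ-free saline, so their differences are set against values at background. Of the 7, Adarb1 and Slc25a20 belong to neither the intestinal nor the pituitary marker list.

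A signal was also present in a transcript row that the annotation pairs with no gene symbol and that no comparison above used. When all 28846 rows were fitted, its difference was -2.57 (limma adjusted p = 0.00653), with colonized means of 8.25 after saline and 10.91 after insulin, and germ-free means of 9.58 and 9.67. It was 1 of 2 rows called in that fit, and 0 of the 5222 negative control rows were called.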

How the results depend on the processing

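With 7 genes called in the main setting, limma called 1 gene with all rows of the table, 2 with median centring and 1 each with cortex markers or fat markers as covariate. It called 0 with dim probe sets (mean under the median) left out, 0 with the chromaffin covariate and 0 with the intestinal covariate (1210, 957 and 651 genes at an unadjusted p under 0.05), the intestinal one being added after seeing the data. The filter on the mean, with its cut at 6.85, removed Reg1, Muc13 and Slc5a1 before the fit, so its 0 is no test of these genes. Limma called 16 with probe sets left out whose highest group mean lay under the negative controls' 95th percentile. That filter keeps Reg1, Guca2b, Muc13 and Gh through the 1 group in which they are high, so the 16 gives these genes no support. It called 148 with array weights, 49 at an adjusted p under 0.10 and 1 at an adjusted p under 0.01. A second quantile normalization gave 10, 1 probe set per gene 7, and the trend and robust options 7, of which 3 were shared. Leaving out single arrays gave 1 to 83 genes: 83, 14 and 9 without animals 1, 2 and 3, 1 each without 4, 5 and 6, 14, 43 and 1 without 7, 8 and 9, and 3, 1 and 1 without 10, 11 and 12. Reg1 was called in all 12 of these fits.

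With the chromaffin covariate the difference reversed, without a call, for Th (0.11), Dbh (0.0358), Pnmt (0.11), Ddc (0.0191), Npy (0.35), Chrna7 (0.0246), Cartpt (0.12), Slc18a2 (0.11), Ttr (-0.14) and Adipoq (-3.31). It reversed for Adipoq (-1.08) with the adipocyte covariate, and for Adh6a (0.0476), Gbp2 (0.47) and Isg15 (0.0456) with the intestinal covariate. Th, Dbh, Pnmt, Ddc and Slc18a2 are part of the chromaffin marker mean, and Adipoq is part of the adipocyte one, so these values are in part set by the covariate itself. For the others the cause was not tested. No paired analysis was possible because each animal number occurs once. With 3 arrays per group, differences of dim genes are limited by signal over background.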
